A study of Mus musculus with 11 samples.

Results

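Calcium channels, pumps and exchangers were described by their mRNA in 4 genotypes of mice. The members were all genes whose symbol begins with Cacna, Cacnb, Cacng, Atp2b, Slc8a or Ryr followed by a digit, together with Atp2a2, Atp2a3, Itpr2 and Itpr3, provided that they had at least 10 counts in total. This gave 40 genes of the 17557 that passed the same minimum, and of 22609 genes listed. The study deleted Neurofascin (Nfasc) and Ankyrin G (encoded by Ank3), which assemble the axon initial segment where action potentials start, and sequenced polyadenylated RNA from 11 libraries labelled cerebellar hemisphere. Control mice (n = 3) carried NfascFx/Fx;AnkGFx/Fx without Cre, and the study's methods also name mice with floxed alleles of only Nfasc or only AnkG among the controls. NFKO mice (n = 3) were Pcp2-Cre;NfascFx/Fx, AnkGKO mice (n = 2) were Pcp2-Cre;AnkGFx/Fx, and DKO mice (n = 3) were Pcp2-Cre;NfascFx/Fx;AnkGFx/Fx. The mice were untreated and of mixed sex, the age is given as P30 in 1 label and P32 in another, and the background as C57BL/6J or mixed C57BL/6J;129. Within the cerebellum, Pcp2-Cre is known to act mainly in Purkinje cells, and per the study's methods the control mice did not carry Cre. Those methods state more AnkGKO mice than the libraries analysed here.

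Voltage-gated calcium channels open on depolarisation and let calcium into the cell through an alpha1 subunit, which beta and alpha2delta subunits bring to the membrane. Calcium is then cleared by pumps and sodium-calcium exchangers in the plasma membrane and by the SERCA pumps of the endoplasmic reticulum, which refill the store that ryanodine and IP3 receptors release. In Purkinje cells the P/Q-type channel and a large calcium-buffering and store system are well known, and mutations in several of these genes cause ataxia in mice.

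No member passed the test in any comparison. With edgeR's quasi-likelihood test and Benjamini-Hochberg adjustment over all genes (calls needed an adjusted p under 0.05 and a log2 fold change at least 0.6 from 0), 0 of 40 members passed in NFKO, AnkGKO or DKO against control, in DKO against NFKO or AnkGKO, or in the interaction of the knockouts. DESeq2 also called 0 members in each. Among all genes, edgeR called 0.365% in NFKO against control, 0.165% in AnkGKO against control, 0.0228% in DKO against control, 0.615% in DKO against NFKO, 0.171% in DKO against AnkGKO and 0.53% for the interaction. In DKO against control the smallest unadjusted p-values among members were those of the T-type channel genes Cacna1i and Cacna1g, which had their lowest mean levels in DKO, and among the 36 members with a mean over 1 CPM (read counts scaled to library size) the widest ranges between libraries were those of Ryr1 and Atp2a3, whose highest libraries belonged to different genotypes.

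The libraries held 38890851 to 55822361 counts in genes, and the members took 0.385% to 0.471% of them, with the lowest share in DKO 2. CPM, scaled by TMM, were used as levels, and 3 counts, taken as the floor for detection, corresponded to 0.0546 to 0.0780 CPM. The tissue label did not match its defining markers in most libraries. The granule cell receptor gene Gabra6 stood at 84.2 and 59.0 CPM in Control 1 and NFKO 1, and between 0.0186 and 4.41 CPM in the other 9 libraries. The Purkinje cell gene Pcp2, whose promoter drives the Cre, stood at 26.3 and 28.3 CPM in the same 2 libraries and between 0.0929 and 2.14 CPM elsewhere. The summed level of 12 Hox genes of paralog groups 6 to 9, which mark the trunk part of the neural tube, was 395 to 615 CPM in all 11 libraries. Ank3 stood between 353 and 407 CPM in the control and NFKO libraries and between 156 and 200 CPM in the AnkGKO and DKO libraries. Nfasc, which glia also express, was 622 to 701 CPM in the NFKO libraries against 661 to 718 CPM in control, so that it did not check the label of the libraries labelled NFKO.

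**Figure D1:**
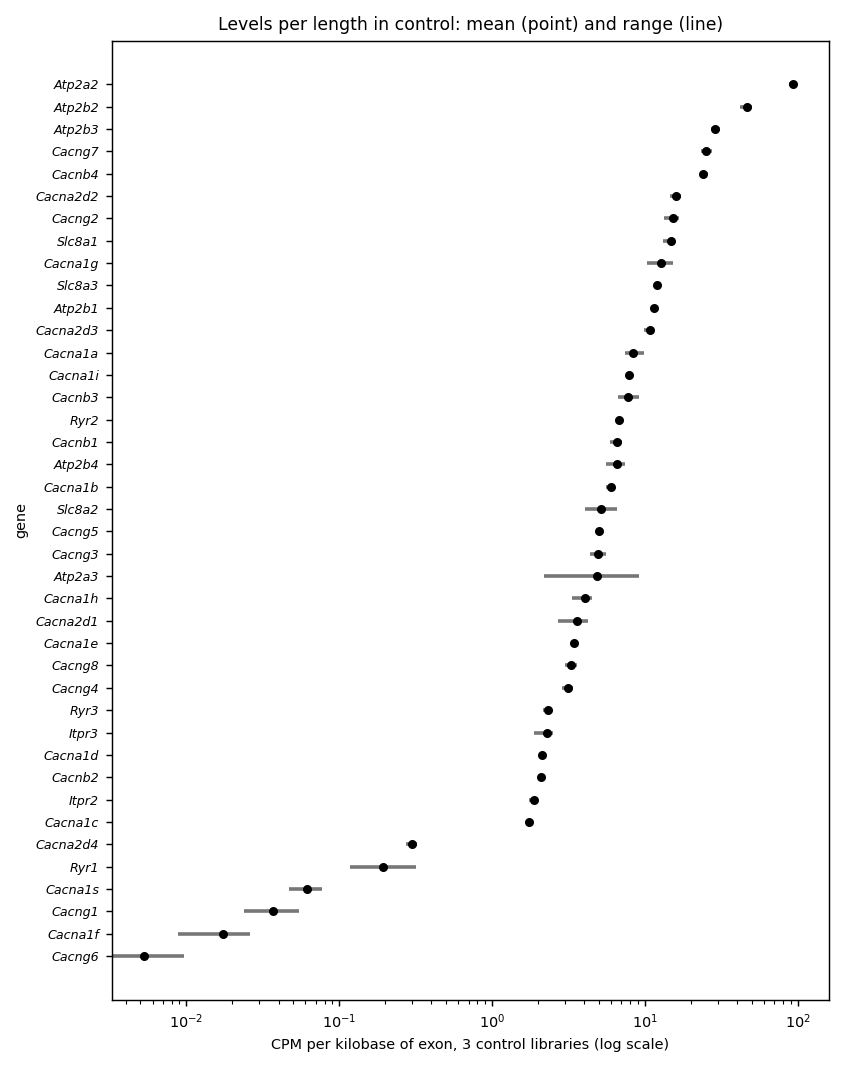
Level per length of the 40 members in the 3 control libraries. The x axis gives CPM per kilobase of exon on a log scale, the point is the mean and the line runs from the lowest to the highest control library. Atp2a2 stands highest at 93.2 and 6 genes lie below 0.3, with Cacng6 lowest.

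Per length, the ER pump Atp2a2 (SERCA2) was the most abundant member in control, at 93.2 ± 5.46 CPM per kilobase of exon (SD, n = 3). The plasma membrane pumps Atp2b2 (PMCA2) and Atp2b3 (PMCA3) followed at 46.2 ± 4.38 and 28.7 ± 2.11 CPM per kilobase. Next came Cacng7, a gamma subunit of the family that also regulates AMPA receptors, at 24.97 ± 2.32, and Cacnb4, a beta subunit, at 24.1 ± 1.49 CPM per kilobase. Of the 39 steps in this order, 31 separated neighbours whose control libraries overlapped and 8 did not. Atp2a2 and Atp2b2 were each separated from the next gene. Ryr1 at 0.194, Cacna1s at 0.0613, Cacng1 at 0.0370, Cacna1f at 0.0174 and Cacng6 at 0.00530 CPM per kilobase closed the order. Cacna1f had 2 to 11 counts and Cacng6 0 to 13 counts in a library.

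**Figure D2:**
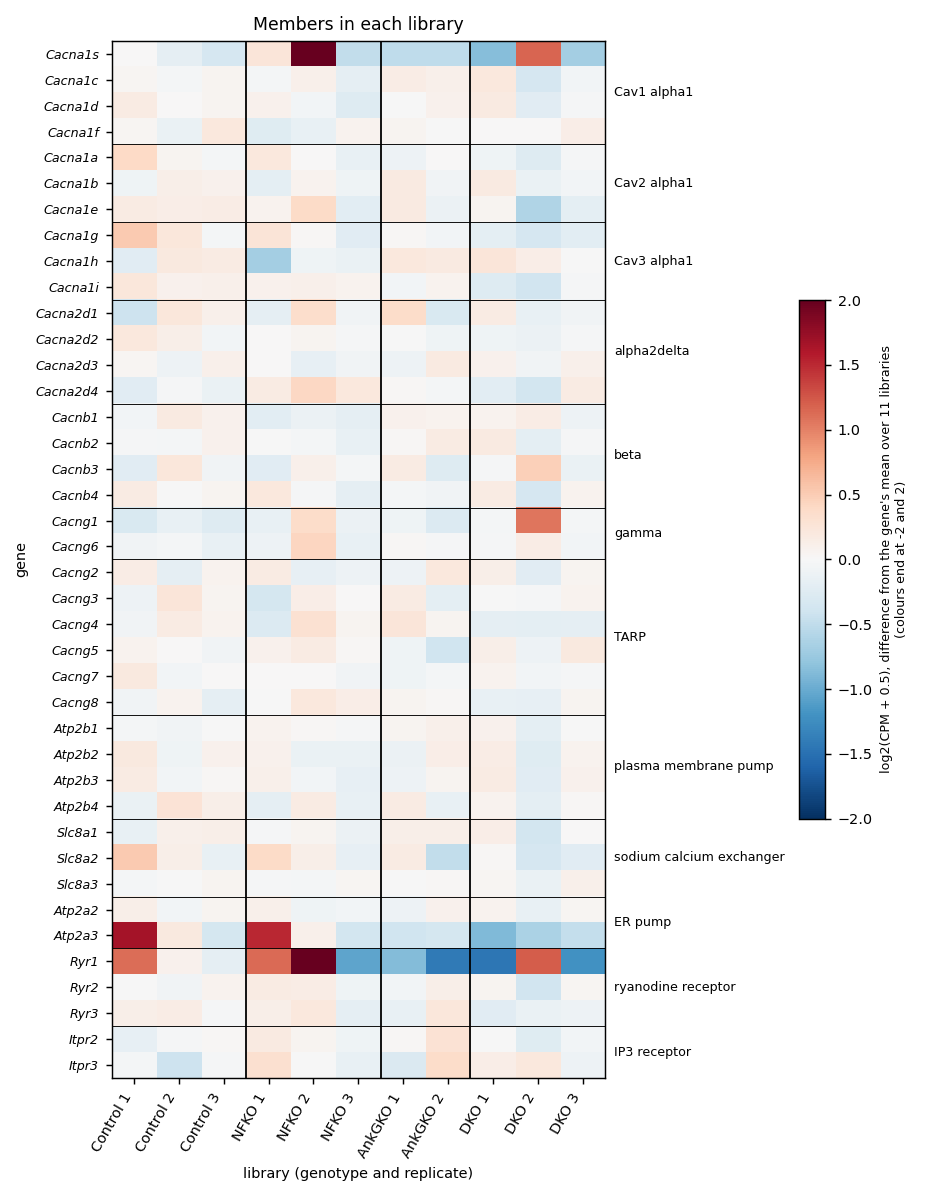
The 40 members, ordered by role, in the 11 libraries. Colour gives log2(CPM + 0.5) minus the mean of the gene over all libraries, so that red is higher and blue lower. Atp2a3 is red in Control 1 and NFKO 1, and Ryr1 and Cacna1s are red in NFKO 2 and DKO 2. Ryr1 is also red in Control 1 and NFKO 1, and DKO 2 is the lowest library for 19 members.

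Among the T-type (Cav3) alpha1 subunits, which open at small depolarisations and carry rebound and burst firing, Cacna1i (chr15:80171436-80282482, GRCm39, plus strand) had a negative log2 fold change in DKO in both tools, short of the fold threshold. It stood at 82.1, 75.1 and 75.3 CPM in the control libraries. The values were 74.4, 75.7 and 73.8 CPM in NFKO, 67.6 and 73.8 CPM in AnkGKO, and 58.7, 53.7 and 69.5 CPM in DKO. All 3 DKO libraries were below every control and NFKO library, and DKO overlapped with AnkGKO. The log2 fold change in DKO against control was -0.35 (SE 0.0868, 95% interval -0.54 to -0.16, unadjusted p = 0.00161, adjusted p = 0.509, edgeR), and against NFKO it was -0.30 (SE 0.0867, adjusted p = 0.142). DESeq2 gave adjusted p = 0.0210 and 0.0209 for the same comparisons at log2 fold changes of -0.35 and -0.30. Leaving out DKO 3 brought edgeR's adjusted p against NFKO to 0.0434 at a log2 fold change of -0.41, and leaving out DKO 2 brought the log2 fold change against control to -0.27 (adjusted p = 0.280). Against AnkGKO it was -0.22 (SE 0.0965, adjusted p = 0.579).

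Cacna1g (chr11:94299217-94365230, GRCm39, minus strand), the T-type gene known from Purkinje cells and deep cerebellar nuclei, showed a larger difference with a wider spread. It stood at 157, 128 and 106 CPM in control, at 131, 110.9 and 93.3 CPM in NFKO, at 111.02 and 105 CPM in AnkGKO, and at 95.2, 86.6 and 94.0 CPM in DKO. All DKO libraries were below all control libraries, and NFKO overlapped with both. In DKO against control the log2 fold change was -0.50 (SE 0.144, 95% interval -0.82 to -0.19, adjusted p = 0.562, edgeR), and DESeq2 gave adjusted p = 0.0344. Without Control 1, in which Cacna1g was highest, the log2 fold change was -0.35 (adjusted p = 0.856). In NFKO and AnkGKO against control the log2 fold changes were -0.22 (SE 0.144, adjusted p = 0.853) and -0.27 (SE 0.162, adjusted p = 0.998). Cacna1h, the third T-type gene, ran from 26.3 CPM in NFKO 1 to 50.4 CPM in DKO 1. NFKO 2 and NFKO 3 stood at 40.3 and 39.0 CPM. The log2 fold change of Cacna1h was -0.33 in NFKO against control (SE 0.160, adjusted p = 0.690) and 0.40 in DKO against NFKO (SE 0.160, adjusted p = 0.253). Over the 21 alternative fits described at the end these values ran from -0.46 to -0.16 and from 0.23 to 0.52.

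The Cav2 alpha1 subunits carry calcium into nerve terminals and set transmitter release. Cacna1a, the pore of the P/Q-type channel that is mutated in inherited ataxia, stood at 189, 149 and 141 CPM in control, at 166, 144 and 130 CPM in NFKO, at 135 and 144 CPM in AnkGKO, and at 136, 120 and 141 CPM in DKO. Control 1 was the highest library and all genotypes overlapped. In DKO against control the difference was -0.27 (SE 0.118, 95% interval -0.53 to -0.01, adjusted p = 0.629), and without Control 1 it was -0.13 (adjusted p = 0.867). Cacna1b, the N-type channel, ranged from 50.7 to 66.1 CPM, with log2 fold changes between -0.11 and 0.02 in the 3 knockouts against control. Cacna1e, the R-type channel, lay within 86.5 to 88.3 CPM in control and ranged from 51.6 CPM in DKO 2 to 103 CPM in NFKO 2, and its log2 fold change in DKO against control was -0.38 (SE 0.182, adjusted p = 0.646). DKO 1 and DKO 3 stood at 82.2 and 68.5 CPM, and the alternative fits gave -0.54 to -0.22.

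The L-type (Cav1) alpha1 subunits were measured as 4 genes. Cacna1c and Cacna1d, the L-type channels of neurons, ranged from 30.2 to 44.2 CPM and from 25.4 to 34.6 CPM, with log2 fold changes of -0.15 to 0.10 in the 3 knockouts against control. Cacna1f, known from photoreceptors, did not exceed 0.238 CPM.

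Cacna1s, the voltage sensor of skeletal muscle, Cacng1, the gamma subunit bound to it, and Ryr1, the release channel that it opens in muscle, were highest in the same 2 libraries. Cacna1s stood at 0.624, 0.483 and 0.381 CPM in control, at 0.823, 4.41 and 0.297 CPM in NFKO, at 0.289 and 0.282 CPM in AnkGKO, and at 0.117, 2.01 and 0.2002 CPM in DKO. Ryr1 stood at 6.97, 3.18 and 2.55 CPM in control, at 7.10, 20.6 and 1.17 CPM in NFKO, at 1.40 and 0.804 CPM in AnkGKO, and at 0.770, 7.52 and 1.00 CPM in DKO. Within NFKO and within DKO, replicate 2 stood far above the other replicates for both genes. Ryr1 was nearly as high in Control 1 and NFKO 1, at 6.97 and 7.10 CPM, as in DKO 2 at 7.52 CPM. Cacng1 had 2, 6 and 3 counts in control, 6, 20 and 7 in NFKO, 7 and 3 in AnkGKO, and 7, 40 and 9 in DKO, so that most libraries were within a few counts of the floor.

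NFKO 2 and DKO 2 were the 2 highest libraries for 4 members, Cacna1s, Cacng1, Cacng6 and Ryr1, against 2.89% of all genes, a pattern described after the values were seen. Of 16 skeletal muscle marker genes, 13 had the same 2 libraries highest. Their summed level was 739 CPM in NFKO 2 and 421 CPM in DKO 2, and 157 to 290 CPM in the other 9 libraries. Pygm, which made up most of the sum outside those libraries at 144 to 205 CPM, did not follow them. Atp2a1, the SERCA pump of fast skeletal muscle and a marker here, stood at 97.8 and 46.2 CPM in NFKO 2 and DKO 2 and between 0.0700 and 15.5 CPM elsewhere, and the muscle genes Myh4 and Myl1 had 0 counts in some libraries. The part of muscle RNA in these differences was not tested, and in bulk tissue fewer cells of a type and less RNA per cell cannot be told apart.

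The largest log2 fold change among the members in DKO against control was that of Cacng1, at 2.28 (SE 0.818, 95% interval 0.50 to 4.07, adjusted p = 0.608, edgeR), and it was 0.95 (adjusted p = 0.615) without DKO 2. For Cacna1s the log2 fold change was 1.89 in NFKO against control (SE 1.18, adjusted p = 0.848) and 0.63 in DKO against control (SE 1.20, adjusted p = 0.915). Leaving out NFKO 2 and DKO 2 brought these Cacna1s values to 0.17 and -1.60 (adjusted p = 0.998 and 0.306). For Ryr1 in DKO against control the value moved from -0.45 (SE 1.16) to -2.24 (adjusted p = 0.392). In Cacna1s, DKO 1 and DKO 3 stood below every control library, so that its direction in DKO against control rested on DKO 2.

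**Figure D3:**
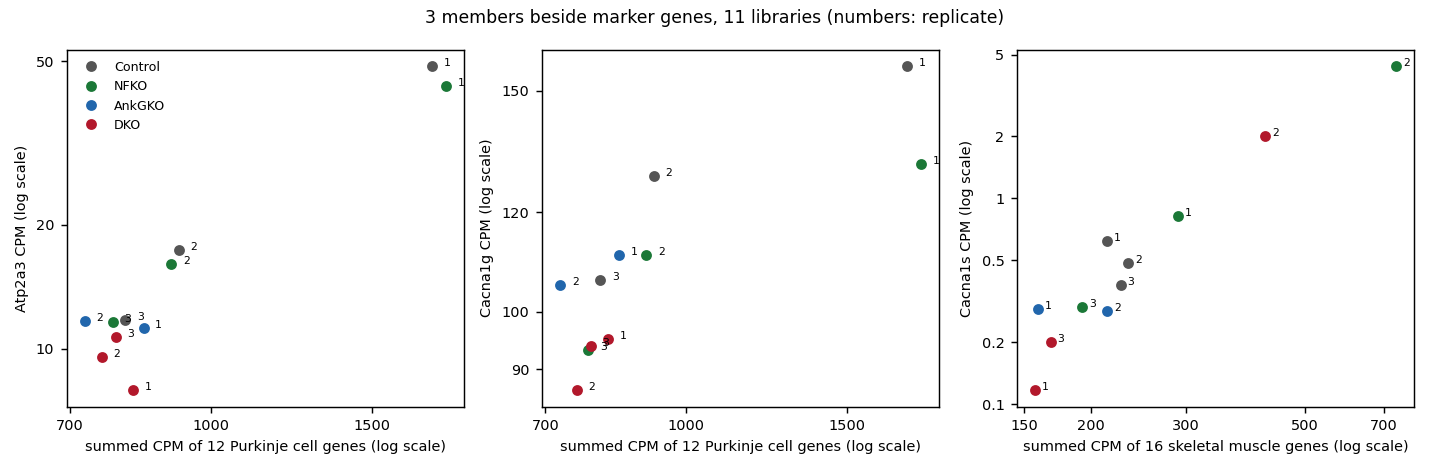
CPM of Atp2a3, Cacna1g and Cacna1s on the y axes against the summed CPM of marker genes on the x axes, on log scales, for 11 libraries coloured by genotype and numbered by replicate. Control 1 and NFKO 1 lie apart from the other 9 libraries in Purkinje cell genes and Atp2a3, and NFKO 2 and DKO 2 in skeletal muscle genes and Cacna1s.

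The 250 bases before the start of transcription are shown for Cacna1s and Ryr1, both highest in NFKO 2 and DKO 2, and for Atp2a3, which varied with Purkinje cell genes (RefSeq, GRCm38.p6, written 5′ to 3′ on the strand of the gene). RefSeq gave such a window for 31 of the 40 members. Capitals mark CANNTG, the E-box letters read by muscle and neuronal bHLH factors. This motif reads as itself on both strands, and CAGCTG is 1 of its forms.
Cacna1s, chr1:136052561-136052810, plus strand: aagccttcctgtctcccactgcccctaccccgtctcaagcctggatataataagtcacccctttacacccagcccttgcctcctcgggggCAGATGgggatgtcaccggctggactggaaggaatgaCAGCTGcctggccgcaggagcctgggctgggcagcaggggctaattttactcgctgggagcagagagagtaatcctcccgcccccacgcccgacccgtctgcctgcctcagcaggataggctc
Ryr1, chr7:29125152-29125401, minus strand: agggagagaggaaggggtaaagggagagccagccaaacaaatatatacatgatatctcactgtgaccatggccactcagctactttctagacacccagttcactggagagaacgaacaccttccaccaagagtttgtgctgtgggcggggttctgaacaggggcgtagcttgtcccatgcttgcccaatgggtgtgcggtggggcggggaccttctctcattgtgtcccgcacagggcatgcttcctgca
Atp2a3, chr11:72960919-72961168, plus strand: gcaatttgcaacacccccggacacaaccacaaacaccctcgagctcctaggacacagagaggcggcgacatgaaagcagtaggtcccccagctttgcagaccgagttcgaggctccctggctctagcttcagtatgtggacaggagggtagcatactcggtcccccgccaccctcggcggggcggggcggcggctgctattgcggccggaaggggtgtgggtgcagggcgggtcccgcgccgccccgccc

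CANNTG occurred 2 times in the Cacna1s window, 1 of them as CAGCTG, and was not among the letters of the Ryr1 and Atp2a3 windows. Of 32851 such windows of all genes, 66.2% held CANNTG and 13.0% held CAGCTG, so a match in Cacna1s is common and is given as a description.

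**Figure D4:**
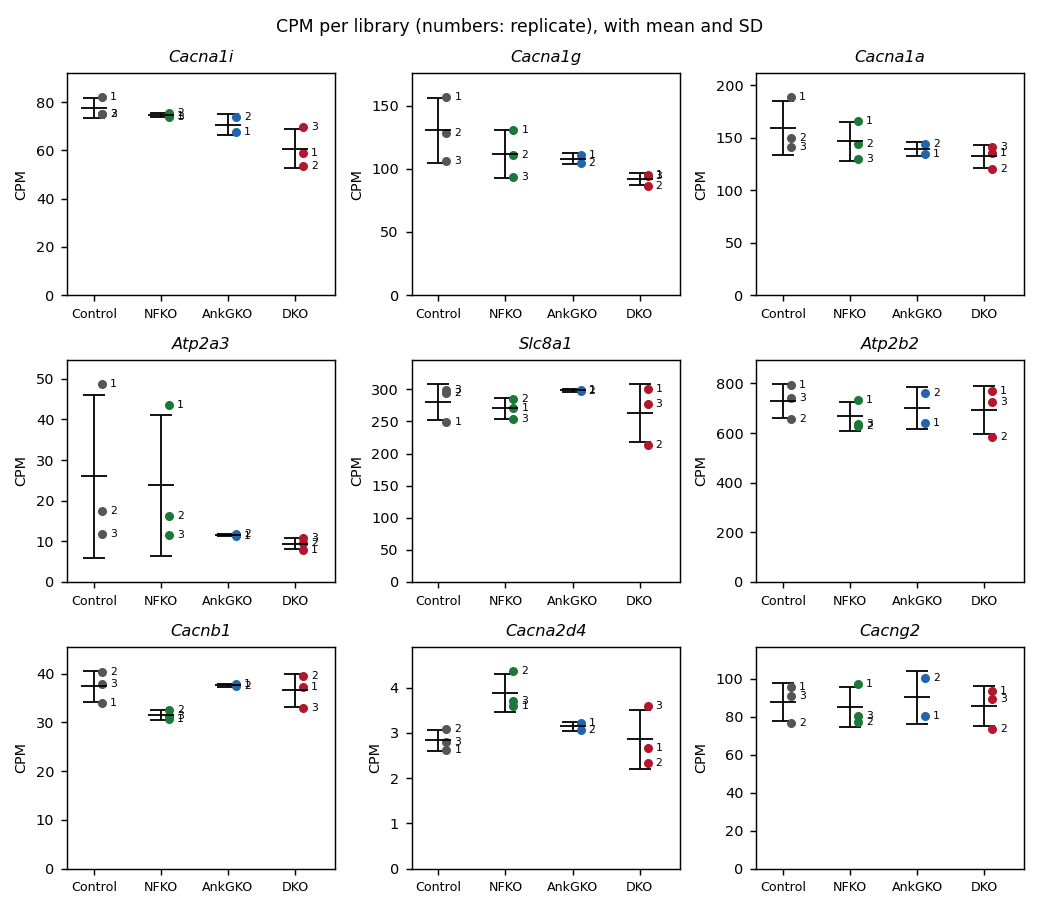
CPM of 9 members in each library by genotype. Coloured points are libraries with their replicate numbers, and the bars give the mean and SD (n = 3, and n = 2 for AnkGKO). Cacna1i and Cacna1g have their lowest means in DKO, Atp2a3 is carried by Control 1 and NFKO 1, and Atp2b2 and Cacng2 overlap between all genotypes. For Slc8a1, AnkGKO lies above NFKO, and DKO spans all other libraries.

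The alpha2delta subunits, which carry the channel complex to the surface, were measured as 4 genes. Cacna2d4, known from the retina, stood at 2.63, 3.08 and 2.81 CPM in control, at 3.596, 4.37 and 3.70 CPM in NFKO, at 3.22 and 3.06 CPM in AnkGKO, and at 2.66, 2.34 and 3.585 CPM in DKO. All NFKO libraries were above all other libraries, DKO 3 being the nearest. Its log2 fold change was 0.45 in NFKO against control (SE 0.177, adjusted p = 0.540) and -0.44 in DKO against NFKO (SE 0.177, adjusted p = 0.249). The interaction, which asks whether the effect of losing both genes differs from the sum of the separate effects, was -0.58 for Cacna2d4 (SE 0.265, adjusted p = 0.477). Cacna2d2, the subunit mutated in the ducky mouse, ranged from 109 to 137 CPM, and its log2 fold change in DKO against control was -0.17 (SE 0.0682, adjusted p = 0.619). In AnkGKO against control Cacna2d2 differed by -0.14 (SE 0.0764, adjusted p = 0.970). Cacna2d1 and Cacna2d3 had log2 fold changes between -0.08 and 0.07 against control. For Cacna2d1, 24.2% of the 50-base words of its transcripts also occurred in another gene, so that its counts may depend on how shared reads were assigned.

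The beta subunits bind the alpha1 subunit inside the cell. Cacnb1 stood at 33.9, 40.4 and 37.8 CPM in control, at 30.7, 32.6 and 31.3 CPM in NFKO, at 37.9 and 37.4 CPM in AnkGKO, and at 37.3, 39.6 and 32.9 CPM in DKO. The 3 NFKO libraries were below all other libraries. Its log2 fold change was -0.25 in NFKO against control (SE 0.0832, 95% interval -0.43 to -0.06, adjusted p = 0.443, edgeR), the lowest adjusted p among members in that comparison, and 0.21 in DKO against NFKO (SE 0.0832, adjusted p = 0.238). Cacnb4, which is mutated in the ataxic lethargic mouse, ranged from 164 CPM in DKO 2 to 242 CPM in NFKO 1, with log2 fold changes of -0.06, -0.13 and -0.10 in NFKO, AnkGKO and DKO against control. Cacnb2 and Cacnb3 lay between -0.08 and 0.14 in the same comparisons.

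The 6 TARP genes, whose products traffic AMPA receptors, differed little. Cacng2 (stargazin), which granule cells need for AMPA receptors at the synapse, stood at 95.7, 76.5 and 90.8 CPM in control, at 97.2, 77.5 and 80.5 CPM in NFKO, at 80.6 and 100.2 CPM in AnkGKO, and at 93.8, 73.7 and 89.5 CPM in DKO. The genotypes overlapped throughout. Its log2 fold changes against control were -0.04, 0.04 and -0.03, with 95% intervals from -0.32 to 0.36 over the 3 knockouts. Cacng5 differed most in AnkGKO, at 20.5 and 16.5 CPM against 20.9 to 22.8 CPM in control and 20.2 to 24.9 CPM in DKO. For Cacng5 the log2 fold change was -0.24 in AnkGKO against control (SE 0.115, adjusted p = 0.934) and 0.31 in DKO against AnkGKO (SE 0.115, adjusted p = 0.533). Over the alternative fits these values ran from -0.41 to -0.093 and from 0.15 to 0.48. Cacng4 stood at 10.9, 10.8 and 10.8 CPM in DKO and at 14.9 and 12.9 CPM in AnkGKO, a log2 fold change of -0.35 (SE 0.151, adjusted p = 0.578). Cacng8 had an interaction of -0.30 (SE 0.164, adjusted p = 0.580), and Cacng3 and Cacng7 lay between -0.13 and -0.06 against control.

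Of the plasma membrane pumps, which push calcium out of the cell with ATP, Atp2b2 is the isoform of Purkinje cells whose loss gives the deafwaddler phenotype. It stood at 792, 655 and 740 CPM in control, at 735, 630 and 636 CPM in NFKO, at 642 and 761 CPM in AnkGKO, and at 768, 586 and 726 CPM in DKO. No genotype stood apart, and the log2 fold changes against control were -0.13, -0.06 and -0.07, with 95% intervals from -0.38 to 0.22. Atp2b1 and Atp2b3 lay between -0.09 and 0.12. Atp2b4 (PMCA4) stood at 84.5 and 68.0 CPM in AnkGKO and at 79.1, 66.1 and 76.5 CPM in DKO. The 2 groups overlapped, with a log2 fold change in DKO against AnkGKO of -0.04 (SE 0.146, 95% interval -0.37 to 0.28, adjusted p = 0.957).

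The sodium-calcium exchangers remove calcium in exchange for sodium entry. Slc8a1 (NCX1) stood at 249, 294 and 299 CPM in control, at 271, 285 and 254 CPM in NFKO, at 299 and 297 CPM in AnkGKO, and at 300.3, 212 and 277 CPM in DKO. DKO 2 was the lowest library and DKO 1 the highest, so that DKO spanned all other libraries. In DKO against AnkGKO the log2 fold change of Slc8a1 was -0.18 (SE 0.127, 95% interval -0.46 to 0.10, adjusted p = 0.730). Slc8a3 (NCX3) varied least, from 67.5 to 79.7 CPM, with log2 fold changes within 0.02 of 0 in every comparison. Slc8a2 (NCX2) was highest in Control 1 at 40.5 CPM and lowest in AnkGKO 2 at 19.9 CPM, with log2 fold changes of -0.06, -0.32 and -0.36 in NFKO, AnkGKO and DKO against control. AnkGKO 1 stood at 31.6 CPM. Over the alternative fits the value ran from -0.69 to -0.015 in AnkGKO and from -0.51 to -0.11 in DKO against control.

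Of the ER pumps, Atp2a2 (SERCA2), the housekeeping isoform, stood at 1201, 1069 and 1152 CPM in control, at 1188, 1046 and 1067 CPM in NFKO, at 1036 and 1185 CPM in AnkGKO, and at 1160, 998 and 1135 CPM in DKO. The log2 fold change of Atp2a2 in AnkGKO against control was -0.04 (SE 0.0939, 95% interval -0.24 to 0.17, adjusted p = 0.998), so a change past the threshold of 0.6 lay outside the interval. Part of its exons, 30.35%, is overlapped by other annotated genes. Atp2a3 (SERCA3; chr11:72851990-72883870, GRCm39, plus strand), which in the cerebellum is known from Purkinje cells, stood at 48.7, 17.4 and 11.7 CPM in control. It stood at 43.6, 16.1 and 11.6 CPM in NFKO, at 11.3 and 11.7 CPM in AnkGKO, and at 7.93, 9.57 and 10.7 CPM in DKO. Control 1 and NFKO 1 stood far above the other 9 libraries, and all DKO libraries were below all others.

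Atp2a3 had a log2 fold change of -1.46 in DKO against control (SE 0.649, 95% interval -2.97 to 0.05, adjusted p = 0.639, edgeR), of -1.34 in DKO against NFKO (SE 0.646, adjusted p = 0.362) and of -1.17 in AnkGKO against control (SE 0.736, adjusted p = 0.998). DESeq2 gave adjusted p = 0.330 in DKO against control. Without Control 1 and NFKO 1 the log2 fold change of Atp2a3 in DKO against control was -0.63 (SE 0.198, adjusted p = 0.896). Over the alternative fits it ran from -1.52 to -0.00048 in AnkGKO against control and from -2.31 to -0.47 in DKO against NFKO. Control 1 and NFKO 1 were the 2 highest libraries for 6 members, Atp2a2, Atp2a3, Cacna1a, Cacna1g, Cacnb4 and Slc8a2, against 3.24% of all genes. The same held for 11 of 12 Purkinje cell markers and 9 of 10 granule cell markers. Summed Purkinje cell markers were 1746 and 1811 CPM in those libraries and 727 to 921 CPM in the other 9, and summed granule cell markers 1057 and 892 CPM against 306 to 385 CPM. Itpr1, the IP3 receptor of Purkinje cells and one of these markers, stood at 600.2 and 650.3 CPM in Control 1 and NFKO 1 and at 108 to 178 CPM in the others. Among the 6 members the next library was close for Atp2a2 (1188 CPM in NFKO 1, 1185 in AnkGKO 2) and Cacnb4 (233.9 in Control 1, 232.0 in DKO 1). It was also close for Cacna1g (131 CPM in NFKO 1, 128 in Control 2). The part of cerebellar cell content in the values of these 6 members was not tested.

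The other members that release calcium from the ER were Ryr2, Ryr3, Itpr2 and Itpr3. Ryr2, the main ryanodine receptor of brain and heart, ranged from 157 CPM in DKO 2 to 229 CPM in NFKO 1, with log2 fold changes of 0.08, 0.03 and -0.08 against control. Ryr3 stood at 44.9, 46.1 and 40.8 CPM in control and at 35.2, 37.7 and 38.4 CPM in DKO. Its groups did not overlap, with a log2 fold change of -0.24 (SE 0.114, adjusted p = 0.639). The IP3 receptor genes Itpr2 and Itpr3 release calcium downstream of phospholipase C. Itpr2 stood at 31.9 and 38.7 CPM in AnkGKO against 28.1, 31.0 and 31.9 CPM in control, and at 31.5, 26.7 and 30.3 CPM in DKO. For Itpr2 the log2 fold change was 0.22 in AnkGKO against control (SE 0.112, adjusted p = 0.948) and -0.26 in DKO against AnkGKO (SE 0.112, adjusted p = 0.578), and its interaction was -0.37 (SE 0.1502, adjusted p = 0.425). Over the alternative fits these 3 values ran from 0.075 to 0.35, from -0.39 to -0.12 and from -0.50 to -0.13. Itpr3 had log2 fold changes of 0.23, 0.23 and 0.24 in the 3 knockouts against control, and each 95% interval included 0. AnkGKO 1 and AnkGKO 2 stood at 24.7 and 39.3 CPM, on either side of the control mean of 27.3 CPM. The alternative fits gave -0.145 to 0.52 for Itpr3 in AnkGKO against control, so its sign there was not stable. They gave 0.067 to 0.325 in NFKO and 0.11 to 0.37 in DKO against control.

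**Figure D5:**
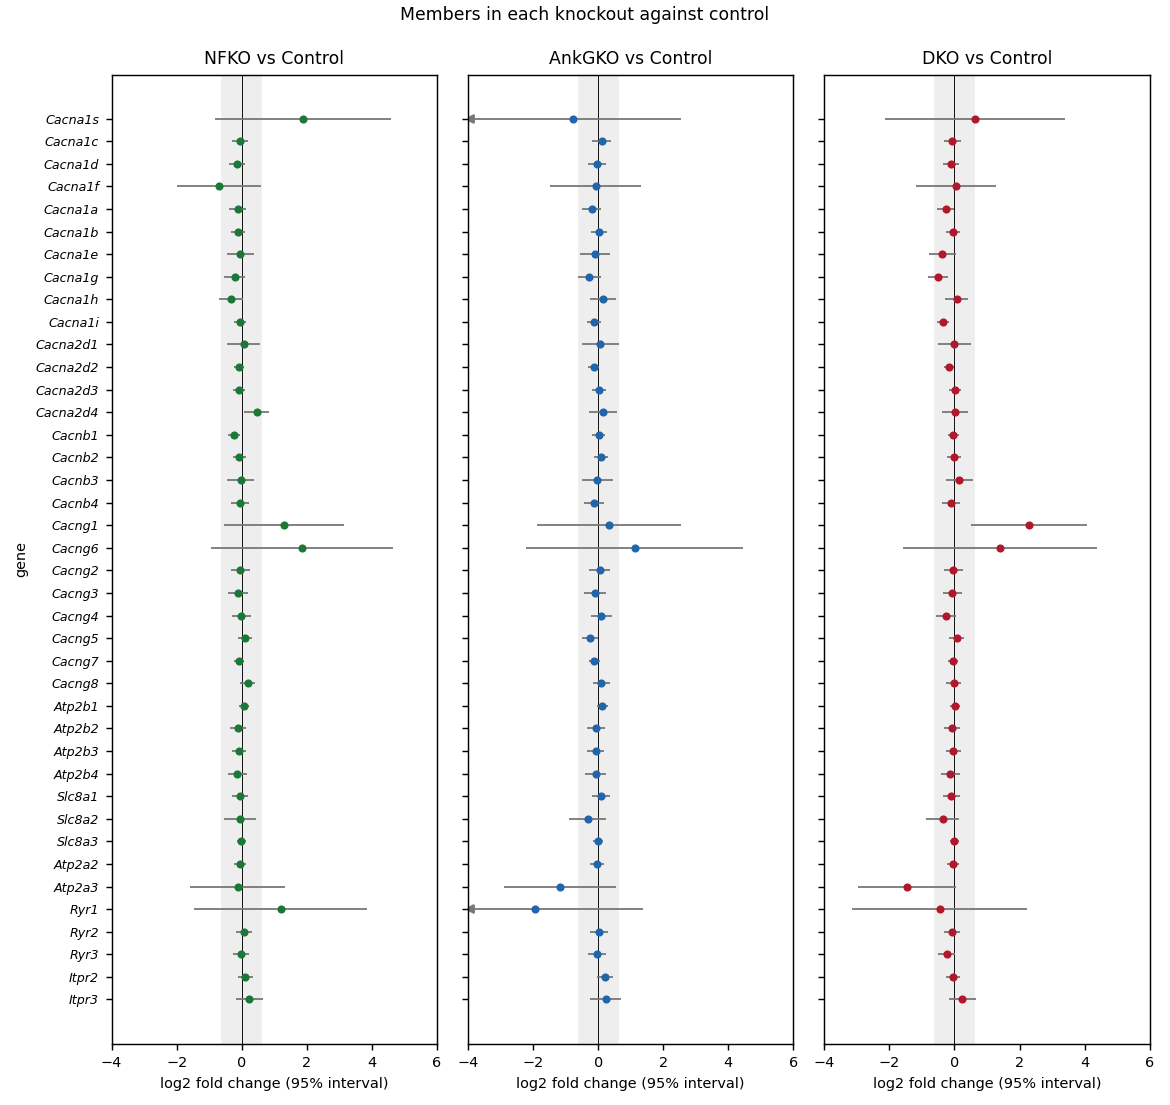
Log2 fold change of the 40 members in NFKO, AnkGKO and DKO against control from edgeR, with 95% intervals as lines and arrowheads where an interval leaves the axis. The grey band runs from -0.6 to 0.6. Intervals lie inside the band for 31, 30 and 30 members, and the wide intervals are those of Atp2a3, Ryr1 and 4 genes at low counts.

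Over all 40 members, the median log2 fold change was -0.05 in NFKO, -0.03 in AnkGKO and -0.05 in DKO against control, against -0.0050, -0.0051 and -0.00063 over all genes tested. It was -0.03 in DKO against NFKO, -0.05 in DKO against AnkGKO and 0.01 for the interaction. In DKO against control 29 members had a negative and 11 a positive value. Without DKO 2 this was 17 negative, and the median was 0.02. DKO 2 was the lowest library for 19 of the 40 members (47.5%), against 10.5% of all genes. The 95% interval lay within 0.6 of 0 for 31 members in NFKO, 30 in AnkGKO and 30 in DKO against control, for 29 in DKO against NFKO, 29 in DKO against AnkGKO, and 23 for the interaction. Over all genes tested this held for 65.4%, 63.0% and 64.6% in the comparisons with control. Among the 36 members over 1 CPM, the highest library was a median of 1.45 times the lowest, against 1.355 times for all genes over 1 CPM.

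At an unadjusted p under 0.05, edgeR found 1 member higher (Cacna2d4) and 1 lower (Cacnb1) in NFKO against control, where 4.48% of all genes were higher and 3.22% lower. No member passed in AnkGKO against control, where 3.21% were higher and 2.18% lower. In DKO against control 1 member was higher (Cacng1) and 4 were lower (Cacna1i, Cacna1g, Cacna1a and Cacna2d2), where 4.04% of all genes were higher and 3.74% lower. In DKO against NFKO 2 were higher (Cacna1h and Cacnb1) and 2 lower (Cacna1i and Cacna2d4), with 7.86% and 8.29% of all genes, and in DKO against AnkGKO 1 was higher (Cacng5) and 3 lower (Cacng4, Itpr2 and Cacna1i), with 4.01% and 4.47%. For the interaction 0 were positive and 2 negative (Itpr2 and Cacna2d4), with 4.69% and 5.63%. DESeq2 found 3, 1, 7, 6, 5 and 2 members in these 6 comparisons, in either direction, where it found 9.33%, 7.08%, 10.6%, 19.7%, 11.1% and 12.8% of all genes.

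Other genes that handle or sense calcium were described beside the members from a list of 72, of which 65 were found under these symbols and tested. None was called in any comparison by edgeR. At an unadjusted p under 0.05 there were 5 in NFKO (7.692%), 5 in AnkGKO (7.692%) and 2 in DKO (3.077%) against control. Over all genes tested these shares were 7.695%, 5.388% and 7.775%. There were 10 in DKO against NFKO (15.38%), 1 in DKO against AnkGKO (1.538%) and 7 for the interaction (10.77%). Over all genes tested these shares were 16.15%, 8.475% and 10.33%. Calr, the calcium-binding chaperone calreticulin of the ER, had a log2 fold change of -0.51 in DKO against NFKO (SE 0.104, adjusted p = 0.0452), under the fold threshold. Stim1, the ER calcium sensor that opens store-operated channels, had 0.31 in the same comparison (SE 0.0671, adjusted p = 0.0555) and -0.28 in NFKO against control (SE 0.0671, adjusted p = 0.141).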

How the data were processed

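RNA-seq libraries of 3 control, 3 NFKO, 2 AnkGKO and 3 DKO mice were grouped by their labels. Per the labels, the authors trimmed reads with Trimmomatic 0.39 and aligned them to GRCm39 with STAR 2.7.11a, and they deposited raw counts per gene. The 5 summary lines of that table, 42.7% to 43.8% of its counts, are named as in htseq-count and were left out, and whether counting used the strand is not given in the sources used here. A second table, the same counts scaled by size factors, was not used. Reads are single-end 100 bp per the labels and paired-end in the study's methods.

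Genes with at least 10 counts were fitted together over the 4 genotypes with edgeR 4.0.16 in R 4.3.3 (TMM, robust quasi-likelihood, Benjamini-Hochberg adjustment). DESeq2 1.42.0 was the alternative. Intervals are at 95%. On data simulated for NFKO against control, edgeR found 179 of 200 changed genes with 3 false calls over 17460 genes. DESeq2 found 186 with 19 false calls. The members and lists were chosen with earlier results of these data known. Named with values are members called, the 3 members with the smallest p in each comparison, those the study names (Atp2a2, Slc8a1, Atp2b4) and 8 genes known in Purkinje cells, granule cells or muscle; others are named within their role, and patterns over libraries were described after the values were seen. The comparisons share libraries, so they are not independent. In the labels, nothing but that of biological replicates says how libraries differ, and all carry the same batch label. The study's methods call the mice littermates, without saying which libraries share a litter. The main fit did not use replicate numbers, and a replicate block was an alternative. Deviations of same-numbered libraries correlated at 0.567, 0.474 and 0.257 between control and NFKO over 13910 genes. Between NFKO and DKO the correlations were 0.0556, 0.454 and 0.273, and in the other genotype pairs they ran from -0.472 to 0.321. Exon lengths are from GENCODE vM39.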

Additional observations from a re-analysis of the deposited data

How the results depend on the processing

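No alternative called any member: 0 members passed in all 6 comparisons with DESeq2, with DESeq2's size factors, with edgeR's expression filter, with no filter, with only the libraries compared (5 comparisons, since the interaction needs all 4 genotypes), without a fold threshold in edgeR, with granule cell genes or Xist as a covariate, and without each library in turn. On the adjusted p alone, DESeq2 passed 2 members in DKO against control (Cacna1i and Cacna1g) and 1 in DKO against NFKO (Cacna1i). The replicate block also gave 0 members, and 55 genes in NFKO against control instead of 64. The labels do not say that the numbers are pairs, and the block changed no member's call. Over all genotypes, 6 of 11 libraries correlated best with their own number.

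The log2 fold change of Atp2a2 in AnkGKO against control (-0.04) became 0.045 with the granule cell covariate and 0.00042 without the 2 libraries highest in granule cell genes, and leaving out a library gave -0.14 to 0.055. In DKO against AnkGKO, the Xist covariate brought Slc8a1 from -0.18 to 0.0039 and Atp2b4 from -0.04 to 0.015. Atp2b4 became 0.024 without the 2 libraries highest in skeletal muscle genes, and leaving out a library gave -0.20 to 0.12. Leaving out these pairs of libraries was chosen after seeing the data. In each case the value stayed within its 95% interval, and the cause was not tested.

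Counts of all genes called moved more: DESeq2 gave 159, 102, 44, 418, 99 and 314 in the 6 comparisons, against 64, 29, 4, 108, 30 and 93, and the Xist covariate gave 31, 15, 5, 43, 13 and 20. Without the 2 libraries highest in granule cell genes the counts were 29, 20, 4, 59, 20 and 41. Depth limits Cacna1f, Cacng1 and Cacng6, which are within a few counts of the floor in most libraries, and AnkGKO rests on 2 libraries.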
